A study of Mus musculus with 4 samples.

Results

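The genes described here are 34 genes of DNA replication and S phase, out of 55471 gene identifiers counted in cells of the embryonic mouse lung. The members were taken as a fixed list of gene symbols: Mcm2, Mcm3, Mcm4, Mcm5, Mcm6, Mcm7, Mcm10, Pcna, Gins1, Gins2, Gins3, Cdc45, Cdc6, Cdt1, Rrm1, Rrm2, Rfc2, Rfc3, Rfc4, Pola1, Pold1, Pole, Prim1, Fen1, Lig1, Tyms, Slbp, Clspn, Chaf1a, Chaf1b, Ccne1, Ccne2, Pclaf and Rpa2. All 34 were found in the files. No measured value entered their choice as S phase genes, although earlier results of these data were known when the list was drawn up. Each was compared between genotypes over all cells of a class, and then within cells that held at least 1 unique molecular identifier (UMI, the tag that marks a captured transcript) in at least 3 of the 6 genes Top2a, Mki67, Cenpf, Birc5, Ube2c and Hmmr. Cells passing that gate are called gated cells. The 6 gate genes serve chromosome condensation, the spindle and cell division, and their transcripts peak late in the cycle.

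Whole lungs of E18.5 embryos were minced, digested with collagenase IV, DNase I and dispase II, freed of red cells and captured in 10x droplets with 3′ chemistry, in 4 libraries. The 2 wild type libraries carry no engineered allele in their labels. The 2 libraries labelled Dnmt1 CKO carry Tbx4-rtTA, Tet-O-Cre and the deleted allele Dnmt1-D/D: rtTA driven by Tbx4, a gene of the lung mesenchyme, activates Cre in the presence of doxycycline, and Cre removes part of Dnmt1, the enzyme that copies DNA methylation onto the new strand after replication. The labels do not give the age at doxycycline, the exons removed, or whether each library was a separate animal, so the p-values measure the spread between these libraries. Values are given below in the order wild type replicate 1, wild type replicate 2, Dnmt1 CKO replicate 1, Dnmt1 CKO replicate 2.

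Before a cell copies its DNA, origins are licensed in G1 by loading the ring of Mcm2 to Mcm7, which Cdc6 and Cdt1 bring to the origin. In S phase the ring becomes an active helicase with Cdc45 and the GINS complex, the clamp Pcna is set on DNA by the RFC loader, and the polymerases copy both strands with nucleotides that ribonucleotide reductase and thymidylate synthase supply. Most of these genes are transcribed in late G1 and S phase under E2F factors, and the late fetal lung mesenchyme is a tissue in which many cells have left the cycle.

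The promoters of 28 of the 34 members were matched in RefSeq (GRCm38.p6, windows of 300 bases, from 250 before to 50 after a gene's start). They are shown for promoter words that the choice of the list did not use and that some members hold and others do not. The words searched on both strands were TTTCCCGC, TTTGGCGC, TTTCGCGC and TTTGCCGC, which are forms of the E2F site and can overlap each other, and CCAAT, the word bound by NF-Y. Of the 28 genes, 13 (46.4%) held at least 1 of the 4 E2F-type words, against 2.60% of 27025 genes in the same table and 2.26% of its 32851 promoters. CCAAT stood in 19 of the 28 (67.9%), against 41.1% of all genes and 37.4% of all promoters. Below are 4 members that rose over all mesenchymal-like cells (Mcm3, Mcm5, Mcm6 and Pclaf) and Gins3, whose log2 fold change there was the lowest of the 34. All 5 hold words of both kinds, which many of the other members do not. Capitals mark the E2F-type words and CCAAT or its complement ATTGG.
Mcm3: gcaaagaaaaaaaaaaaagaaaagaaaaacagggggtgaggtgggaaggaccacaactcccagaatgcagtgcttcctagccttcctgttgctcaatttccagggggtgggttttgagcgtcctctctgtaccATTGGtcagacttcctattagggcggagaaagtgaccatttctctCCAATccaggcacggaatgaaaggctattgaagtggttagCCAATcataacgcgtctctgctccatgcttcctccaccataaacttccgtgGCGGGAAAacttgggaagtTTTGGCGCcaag
Mcm5: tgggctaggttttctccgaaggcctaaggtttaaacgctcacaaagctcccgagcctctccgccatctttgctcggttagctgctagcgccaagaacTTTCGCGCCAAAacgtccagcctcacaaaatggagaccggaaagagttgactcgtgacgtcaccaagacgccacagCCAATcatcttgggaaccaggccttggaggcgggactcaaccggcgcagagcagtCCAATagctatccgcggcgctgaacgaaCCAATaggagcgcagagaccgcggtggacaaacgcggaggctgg
Mcm6: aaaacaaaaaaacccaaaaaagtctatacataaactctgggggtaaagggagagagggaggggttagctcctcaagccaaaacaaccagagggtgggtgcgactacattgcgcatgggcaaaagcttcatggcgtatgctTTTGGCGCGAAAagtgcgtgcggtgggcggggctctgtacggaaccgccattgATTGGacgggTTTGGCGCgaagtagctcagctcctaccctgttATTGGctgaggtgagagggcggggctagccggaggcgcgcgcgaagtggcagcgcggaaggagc
Pclaf: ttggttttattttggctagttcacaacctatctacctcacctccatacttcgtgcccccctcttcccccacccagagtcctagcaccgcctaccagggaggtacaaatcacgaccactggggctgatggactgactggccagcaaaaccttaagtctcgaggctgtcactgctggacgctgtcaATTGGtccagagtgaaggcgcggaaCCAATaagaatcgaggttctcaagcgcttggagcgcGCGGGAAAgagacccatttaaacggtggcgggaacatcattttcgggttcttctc
Gins3: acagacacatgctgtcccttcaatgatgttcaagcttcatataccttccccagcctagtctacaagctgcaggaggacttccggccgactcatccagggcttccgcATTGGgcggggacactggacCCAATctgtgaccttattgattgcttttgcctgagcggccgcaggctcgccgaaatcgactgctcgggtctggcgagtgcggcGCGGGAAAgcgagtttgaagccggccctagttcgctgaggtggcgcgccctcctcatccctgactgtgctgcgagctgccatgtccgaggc

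The 5 windows lie at chr1:20820263-20820562 on the minus strand (Mcm3), chr8:75109259-75109558 on the plus strand (Mcm5), chr1:128359656-128359955 on the minus strand (Mcm6), chr9:65890073-65890372 on the plus strand (Pclaf) and chr8:95633309-95633608 on the plus strand (Gins3), all on GRCm38.p6. Mcm6 held 3 E2F-type words, Mcm3 and Mcm5 held 2 each, and Pclaf held 1. Gins3 held 1 as well. All 5 windows shown hold such words, so they cannot show whether a word goes with a rise. Of the members that rose but are not shown, Rfc3 held 2, and Tyms and Chaf1a held 0. Of the 9 members that passed the test in mesenchymal-like cells, 7 had a promoter in the table and 5 of these held an E2F-type word. Of the 25 others, 21 had a promoter and 8 held one. A match describes letters in a window and is not a measured binding site. The windows follow RefSeq gene starts, while the gene positions given further below are from GENCODE, whose starts differ for some genes.

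The deposited libraries held 48213065, 56760219, 49582593 and 54334468 UMIs, and 5111, 4932, 4323 and 5675 cells were kept, with median depths between 5902 and 7685 UMIs a cell. Barcodes left out for under 500 genes numbered 1294 of 6698, 1041 of 6284, 2513 of 7013 and 1910 of 7820. More were thus lost in both Dnmt1 CKO libraries, and most in replicate 1. Of 27738 barcode sequences, 77 occurred in 2 libraries and none in more. The mesenchymal-like class held 2794, 2556, 2559 and 2781 cells, and all 16 of its marker genes were detected in every library's sum. Dnmt1, whose deletion the labels state, stood at 28.9, 25.3, 9.22 and 12.8 CPM in these cells. CPM is a gene's count scaled to 1000000 UMIs of the summed cells, with edgeR's TMM factors for single genes unless called plain, and without them for sums over several genes. It was lower in both Dnmt1 CKO libraries than in both wild type libraries (log2 fold change −1.30, SE 0.22, edgeR adjusted p = 0.0066). In endothelial-like cells its plain CPM was 72.8, 66.4, 72.3 and 62.2, with overlapping groups. Whether the counted reads lie inside the deleted part of the gene is not given in the sources used here.

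Over all mesenchymal-like cells, S phase transcripts were more abundant in the Dnmt1 CKO libraries. Of the 34 members, 9 rose and none fell at an adjusted p under 0.05 (edgeR quasi-likelihood test on UMIs summed per library, Benjamini-Hochberg over 16131 genes), and DESeq2 also gave 9. Over all genes tested, 7.14% were called higher and 5.89% lower. The fold change was positive for 33 of 34 members, and its median over the members was 0.69 on the log2 scale against 0.00 over all genes tested. Both Dnmt1 CKO libraries lay above both wild type libraries for 26 members and below them for none, while 29.9% of all genes tested lay above and 28.1% below. At an unadjusted p under 0.05 there were 23 members. The count of calls rested on single libraries: leaving out wild type replicate 2, which had the lowest level of each of the 9, left 0 calls, and leaving out Dnmt1 CKO replicate 1 left 4. It was 11 when wild type replicate 1 was left out and 19 when Dnmt1 CKO replicate 2 was. In bulk sums such as these, more cells with a transcript and more copies per cell cannot be told apart.

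Among the 8 licensing genes, 3 rose and the median log2 fold change was 1.00. Mcm3 (chromosome 1, 20802968 to 20820312, minus strand), a subunit of the helicase ring, stood at 16.3, 11.3, 40.0 and 28.5 CPM. Both mutant libraries were above both wild type libraries, with a change of 1.31 on the log2 scale (SE 0.25, edgeR adjusted p = 0.0099), the smallest p among the members. Mcm5 (chromosome 8, 75109569 to 75128439, plus strand), its neighbour in the ring, stood at 7.18, 4.28, 20.9 and 12.2 CPM. The groups did not overlap, and the log2 fold change was 1.52 (SE 0.33, edgeR adjusted p = 0.0188). Mcm6 (chromosome 1, 128331590 to 128359664, minus strand), another ring subunit, stood at 12.2, 11.1, 33.5 and 17.7 CPM, with Dnmt1 CKO replicate 1 well above the rest. Its log2 fold change was 1.13 (SE 0.29, edgeR adjusted p = 0.0347).

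The other 5 licensing genes did not pass the test. Mcm2, a ring subunit that also binds histones, stood at 11.3, 6.10, 20.9 and 12.5 CPM (log2 fold change 0.94, edgeR adjusted p = 0.106), and the lower mutant library was only just above the higher wild type library. Mcm7 had a log2 fold change of 0.60 (edgeR adjusted p = 0.0723) and Cdc6, a loader of the ring, 1.06 (edgeR adjusted p = 0.0961). Cdt1, the other loader, had 0.64 (edgeR adjusted p = 0.202). Mcm4 was the most abundant of the 8 in UMIs but differed least, at 45.7, 48.4, 62.3 and 44.3 CPM (log2 fold change 0.18, edgeR adjusted p = 0.625), and its groups overlapped. The transcripts of the ring's 6 subunits thus ranged from 0.18 to 1.52 in log2 fold change.

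None of the 5 genes that activate the helicase passed the test. Mcm10, which helps to start unwinding, came closest at 1.76, 1.06, 3.74 and 3.08 CPM (log2 fold change 1.23, edgeR adjusted p = 0.0555). Cdc45, a part of the active helicase, had a log2 fold change of 0.94 (edgeR adjusted p = 0.0981) and Gins2 had 0.71 (edgeR adjusted p = 0.117). The other GINS subunits differed little: Gins1 had a log2 fold change of 0.10. Gins3, at 3.77, 4.47, 3.89 and 3.79 CPM, was the only member with a negative value (log2 fold change −0.10, edgeR adjusted p = 0.851).

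Of the 5 genes of the clamp and its loader, 3 rose. Rfc2 (chromosome 5, 134581366 to 134601805, plus strand), a loader subunit, stood at 32.7, 25.2, 58.9 and 49.4 CPM. Its groups did not overlap (log2 fold change 0.90, SE 0.20, edgeR adjusted p = 0.0210). Rfc3 (chromosome 5, 151642756 to 151651242, minus strand), another subunit of the same loader, stood at 18.7, 13.1, 38.2 and 26.6 CPM. It too was higher in both mutant libraries (log2 fold change 1.02, SE 0.25, edgeR adjusted p = 0.0277). Pclaf (chromosome 9, 65890237 to 65903266, plus strand), a small protein that binds the clamp, stood at 45.4, 24.5, 94.96 and 67.1 CPM. Its log2 fold change was 1.21 (SE 0.30, edgeR adjusted p = 0.0297). The clamp itself, Pcna, stood at 70.2, 50.8, 97.2 and 77.4 CPM. Both mutant libraries were higher, but the log2 fold change of 0.53 did not pass (edgeR adjusted p = 0.152). For Rfc4 the groups overlapped (log2 fold change 0.43, edgeR adjusted p = 0.305).

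Of the 4 polymerase genes, Pole (chromosome 5, 110286306 to 110337474, plus strand), the catalytic subunit of the leading strand polymerase, rose, and by the most of any member. It was a rare transcript at 2.86, 1.73, 9.91 and 5.21 CPM. The mutant libraries were both higher (log2 fold change 1.69, SE 0.39, edgeR adjusted p = 0.0224). Prim1, the primase subunit that makes RNA primers, stood at 11.4, 7.69, 18.6 and 14.02 CPM (log2 fold change 0.77, edgeR adjusted p = 0.0861). Pold1, of the lagging strand polymerase, and Pola1, of the polymerase that extends primers, had log2 fold changes of 0.53 and 0.40, and the groups of each overlapped.

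Among the 3 genes of nucleotide supply, Tyms (chromosome 5, 30058202 to 30073617, minus strand), the enzyme that makes thymidylate, stood at 25.1, 14.8, 50.5 and 38.7 CPM. It rose, with no overlap between groups (log2 fold change 1.16, SE 0.26, edgeR adjusted p = 0.0221). Rrm2, the subunit of ribonucleotide reductase whose amount follows the cycle, stood at 11.7, 8.12, 18.8 and 12.96 CPM and did not pass (log2 fold change 0.68, edgeR adjusted p = 0.137). Rrm1, its partner, had a log2 fold change of 0.37 and overlapping groups. Of the 3 genes for new chromatin, Chaf1a (chromosome 17, 56040439 to 56072289, plus strand), the large subunit of the histone chaperone CAF-1, stood at 8.45, 6.10, 21.2 and 11.4 CPM. It rose, though Dnmt1 CKO replicate 2 was much nearer to wild type than replicate 1 (log2 fold change 1.16, SE 0.32, edgeR adjusted p = 0.0445). Chaf1b, its partner, had a log2 fold change of 0.91 (edgeR adjusted p = 0.207) and Slbp, which binds histone mRNA, 0.50 (edgeR adjusted p = 0.119).

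The remaining members did not pass. Fen1, which trims flaps on the lagging strand, Rpa2, a subunit of the cover on single-stranded DNA, and Lig1, the ligase that seals nicks, had log2 fold changes of 0.89, 0.61 and 0.60. Clspn, which relays the checkpoint signal at a stalled fork, had 0.63 (edgeR adjusted p = 0.107). The E cyclins, which drive entry into S phase, differed less: Ccne2 had a log2 fold change of 0.58 and Ccne1 had 0.36. Both were under the median of the 34 members.

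**Figure D1:**
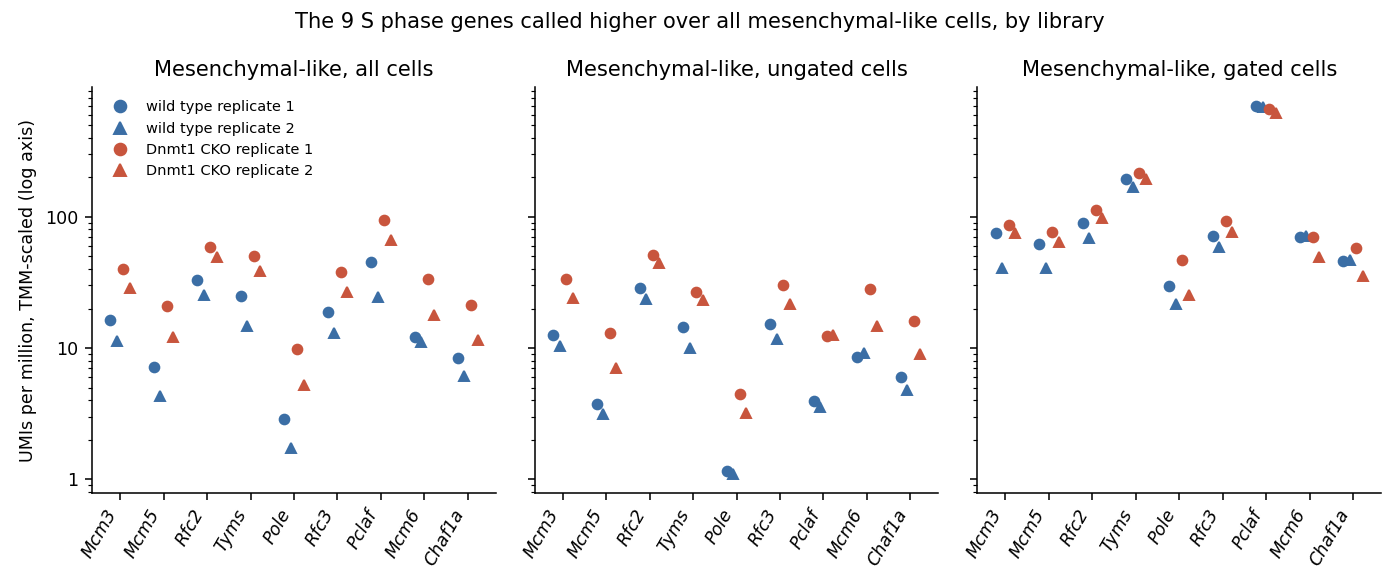
The 9 members that rose over all mesenchymal-like cells, in CPM on a log axis, with a point for each library, over all cells, in ungated cells and in gated cells. Over all cells and in ungated cells both Dnmt1 CKO points lie above both wild type points for each gene, as for Mcm3 at 40.0 and 28.5 against 16.3 and 11.3. Within gated cells the points mix for several genes, and Pclaf runs from 701 and 685 in wild type to 660 and 613 in Dnmt1 CKO.

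Other genes of replication and of the repair that accompanies it were taken from a list of 68 that held no member. Over all mesenchymal-like cells 12 of 68 rose and none fell (edgeR), against 7.14% of all genes called higher and 5.89% lower. Of the 68, 57 had a positive fold change, and the median log2 fold change was 0.51. The 6 with the smallest adjusted p were Hells, Rfc5, Dck, Tipin, Fancd2 and Brca1. Hells, a chromatin remodeller that is needed for DNA methylation, stood at 15.02, 12.2, 56.9 and 32.0 CPM, and the mutant libraries were both higher (log2 fold change 1.70, edgeR adjusted p = 0.0055). Rfc5, which shares the clamp loader with the members Rfc2 and Rfc3, had a log2 fold change of 1.65 (edgeR adjusted p = 0.0059). Dck, which salvages deoxynucleosides, had 1.38 (edgeR adjusted p = 0.0090), and Tipin, which protects the fork, had 0.86 (edgeR adjusted p = 0.0249). Fancd2 and Brca1, of DNA crosslink and break repair, had 1.64 (edgeR adjusted p = 0.0303) and 1.12 (edgeR adjusted p = 0.0361). Only 3 of the 68 rose when wild type replicate 2 was left out, and 3 when Dnmt1 CKO replicate 1 was.

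More mesenchymal-like cells passed the gate in the mutant. With every cell thinned to 3000 UMIs, 2.88% (Wilson 95% interval 2.30 to 3.59) and 1.58% (1.15 to 2.16) of wild type cells were gated, against 6.50% (5.58 to 7.55) and 4.91% (4.13 to 5.83) of Dnmt1 CKO cells. The means were 2.23% ± 0.92 (SD, n = 2) and 5.70% ± 1.12 (SD, n = 2). The intervals of the 2 genotypes did not overlap, and they cover counting error only. Between 142 and 296 cells a library were too shallow for 3000 UMIs and were left out. Without thinning the shares were 3.65%, 1.64%, 8.79% and 5.68%. An exact permutation test of 2 libraries against 2 cannot give a p under 0.333, so none was run on shares.

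The gated share was read against cell types that have left the cycle. In AT1-like cells, the flat cells of the gas exchange surface, it was 1.14%, 0%, 0.72% and 0.68%, where 0 of the cells of wild type replicate 2 allows up to 1.00%. The mesenchymal-like share was above the AT1-like share of its own library in each of the 4. Among ciliated-like cells, which were few, 0 of 17, 2 of 46, 1 of 22 and 1 of 90 were gated. That share was above the mesenchymal-like one in wild type replicate 2, from 2 cells, and below it in the other libraries. In endothelial-like cells the share was 17.9%, 12.1%, 22.8% and 17.5%, and the groups overlapped. It was 10.3%, 10.9%, 14.6% and 7.60% in immune-like cells and 1.37%, 0.65%, 1.62% and 0.94% in epithelial-like cells, again with overlap. In the small mesothelial-like class it was 9.09%, 10.3%, 5.00% and 21.5%, so the mutant libraries lay on either side of wild type.

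**Figure D2:**
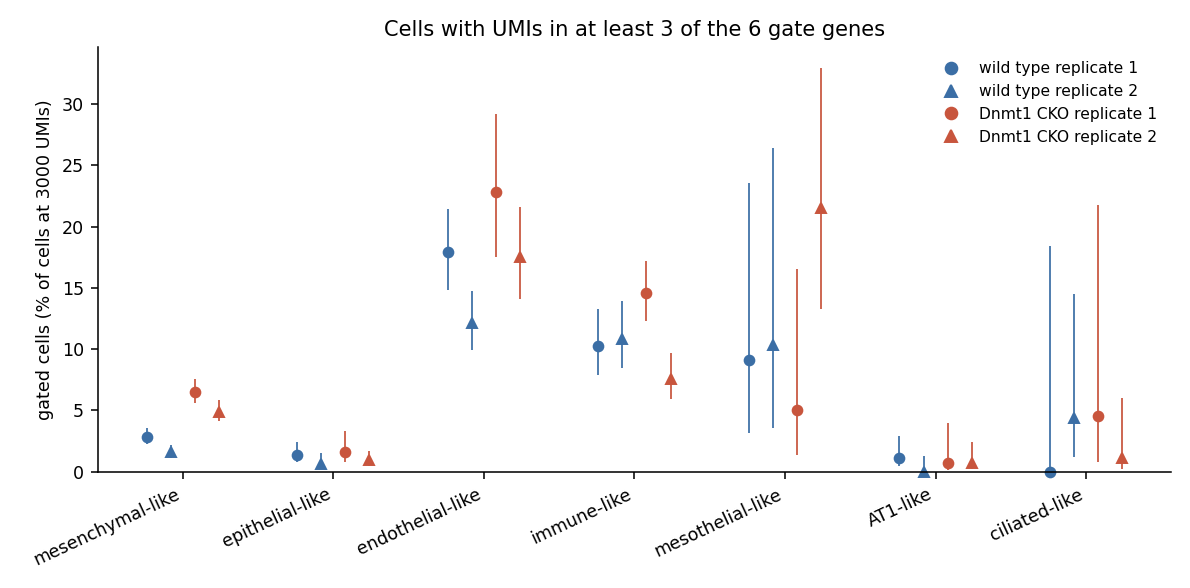
The share of cells passing the gate, in percent, after thinning to 3000 UMIs, with a point for each library and bars for the Wilson 95% interval of counting error, by cell class. In mesenchymal-like cells both Dnmt1 CKO libraries (6.50% and 4.91%) lie above both wild type libraries (2.88% and 1.58%), and in the other broad classes the genotypes overlap.

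Within gated mesenchymal-like cells (102, 42, 225 and 158 cells) no member was called higher or lower, and few of all genes tested were. The edgeR test called 0 of 34, against 2.23% of 9679 genes tested, with 1 member at an unadjusted p under 0.05, and DESeq2 also called 0. The fold change was positive for 15 members and the median log2 fold change was −0.04. Both mutant libraries were above both wild type libraries for 7 members, below for 7 and overlapping for 20, while 24.3% of all genes tested lay above and 22.7% below. Dnmt1 in the same sums stood at 117, 119, 23.0 and 37.8 CPM and was called lower (log2 fold change −1.94, edgeR adjusted p = 0.0043). Gated cells were deep, with median UMIs of 9502, 15542, 11233 and 9718.5 a cell.

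The member with the smallest p in gated cells was Rrm2, at 165, 186, 121 and 102 CPM. Both mutant libraries were lower, and the difference did not pass the adjustment (log2 fold change −0.64, SE 0.21, edgeR adjusted p = 0.169). Gins1 (14.4, 21.8, 10.1 and 9.13 CPM), Rrm1 and Clspn were also lower in both mutant libraries, with log2 fold changes of −0.78, −0.43 and −0.39. Pclaf was by far the most abundant member in these cells at 701, 685, 660 and 613 CPM (log2 fold change −0.12, SE 0.20). Tyms stood at 193, 168, 215 and 193 CPM (log2 fold change 0.17, SE 0.20), and the clamp Pcna at 260, 217, 269 and 216 CPM (log2 fold change 0.02, SE 0.22). For Pcna the genotypes interleaved. Mcm3 (74.8, 40.6, 86.7 and 75.6 CPM) and Mcm5 (61.5, 40.6, 76.5 and 63.9 CPM) kept positive fold changes of 0.45 and 0.43 on the log2 scale, with SEs of 0.28 and 0.25. Slbp stood at 180, 212, 297 and 219 CPM, a log2 fold change of 0.40 (SE 0.23). These errors leave room for changes in either direction in most members.

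The cells outside the gate were compared in the same way, a fit added after the data were seen. There 9 of 34 members rose and none fell (edgeR), against 12.4% of 15794 genes called either way and 6.76% called higher, and DESeq2 gave 10. The 9 called by edgeR were the same genes that rose over all cells. Gated cells held only 3.12% to 13.3% of all UMIs. The ungated sums are part of the sums over all cells, so much of the overlap is built in. How much differs by gene, and most Pclaf UMIs lay in gated cells. Leaving out wild type replicate 2 left 1 call and leaving out Dnmt1 CKO replicate 1 left 3, while leaving out wild type replicate 1 gave 6 and leaving out Dnmt1 CKO replicate 2 gave 11. Pclaf had the smallest p, at 3.98, 3.53, 12.5 and 12.7 CPM, so that the libraries of a genotype lay close together and far from the other genotype (log2 fold change 1.72, SE 0.23, edgeR adjusted p = 0.0028). With the gate set on thinned cells, Pclaf did not pass in the cells outside it (log2 fold change 1.39). Mcm3 stood at 12.5, 10.4, 33.5 and 23.9 CPM (log2 fold change 1.32, edgeR adjusted p = 0.0077) and Mcm5 at 3.73, 3.13, 12.9 and 7.06 CPM (log2 fold change 1.52, edgeR adjusted p = 0.0200).

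The other 6 were also higher in both mutant libraries. Mcm6 stood at 8.48, 9.24, 28.3 and 14.6 CPM (log2 fold change 1.27, edgeR adjusted p = 0.0297) and Pole at 1.16, 1.09, 4.50 and 3.20 CPM (log2 fold change 1.68, edgeR adjusted p = 0.0151). Tyms stood at 14.4, 9.93, 26.7 and 23.4 CPM (log2 fold change 1.04, edgeR adjusted p = 0.0205). Rfc2, Rfc3 and Chaf1a had log2 fold changes of 0.87, 0.95 and 1.20, with edgeR adjusted p of 0.0199, 0.0328 and 0.0381. Over all 34 members the median log2 fold change outside the gate was 0.61, and 33 were positive, Gins3 again being the exception (−0.37). The cyclin Ccne2 (3.28, 3.38, 3.63 and 3.20 CPM) and Rrm1 (13.9, 13.6, 16.0 and 12.4 CPM) showed next to no difference there, with log2 fold changes of 0.04 and 0.05.

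**Figure D3:**
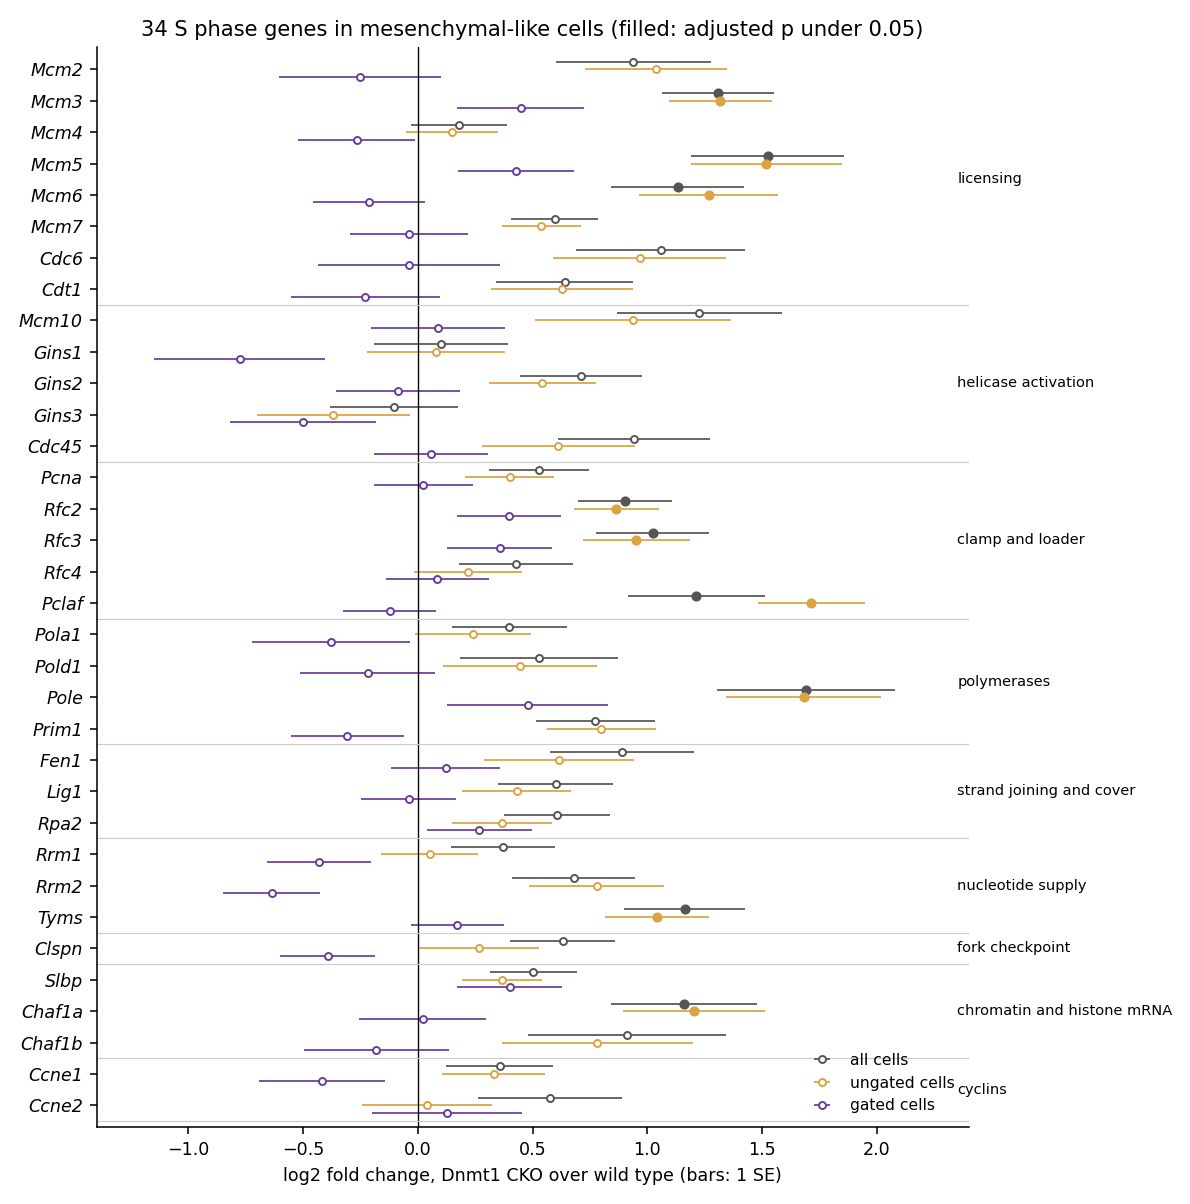
Log2 fold change of Dnmt1 CKO over wild type for each of the 34 members in mesenchymal-like cells, with bars of 1 SE, over all cells, in ungated cells and in gated cells, ordered by role. Filled points passed at an adjusted p under 0.05 in edgeR. The 9 filled genes are the same over all cells and outside the gate. Those sums share most of their UMIs over all genes, but not for Pclaf. No point for gated cells is filled.

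Whether the change differed inside and outside the gate was tested directly, as an interaction of genotype and gate with the library as a block. For 7 of 34 members the change was lower in gated cells, for none was it higher (edgeR), against 2.32% of 15479 genes called either way and 1.44% called lower. The median difference was −0.62 on the log2 scale. Pclaf had the largest, −1.78 (SE 0.17, edgeR adjusted p = 2.9e-09). Mcm6 followed with −1.45 (edgeR adjusted p = 0.00015) and Rrm2 with −1.37 (edgeR adjusted p = 0.00079). For Rrm2 both mutant libraries were higher outside the gate (2.06, 2.48, 3.86 and 4.12 CPM) and lower inside it (165, 186, 121 and 102 CPM). Mcm2 had a difference of −1.25 (edgeR adjusted p = 0.0146), Chaf1a −1.14 (edgeR adjusted p = 0.0210), Prim1 −1.06 (edgeR adjusted p = 0.0183) and Tyms −0.83 (edgeR adjusted p = 0.0036). Of the 7, only Pclaf, Mcm6, Chaf1a and Tyms were among the 9 that rose over all cells. The gate does not hold every cell rich in members, so the ungated sums mix such cells with others.

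Mcm2 stood at 8.93, 5.31, 17.7 and 11.6 CPM outside the gate and at 48.2, 31.2, 43.7 and 22.2 CPM inside it. Prim1 stood at 6.29, 6.06, 12.1 and 9.54 CPM outside and at 91.2, 59.3, 63.6 and 59.3 CPM inside. In each of these genes the mutant libraries were higher outside the gate and overlapped wild type inside it. The count of 7 depended on the settings: DESeq2 gave 3, a gate of at least 4 genes gave 3 and a gate set on thinned cells gave 3. It was 2 without Dnmt1 CKO replicate 1 and 3 without Dnmt1 CKO replicate 2. Pclaf and Rrm2 passed in all of these.

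The summed level of the 34 members can be written as the share of UMIs in gated cells times the level in those cells, plus the remainder. The sum stood at 578, 482, 1027 and 741 plain CPM over all mesenchymal-like cells, so the mutant libraries were both higher. In gated cells it was 3213, 3158, 3310 and 2737 CPM, with overlap, and in ungated cells 414, 396, 677 and 536 CPM, without overlap. Gated cells held 5.85%, 3.12%, 13.3% and 9.33% of the UMIs. From the mean share and levels of each genotype, the sum came to 529 CPM for wild type and to 880 CPM for the mutant, a ratio of 1.66. Setting only the gated share to its Dnmt1 CKO mean gave 719 CPM, a ratio of 1.36. Setting only the level in ungated cells gave 722 CPM, a ratio of 1.36, and setting only the level in gated cells gave 522 CPM, a ratio of 0.99. The share accounted for 54.1% of the difference and the ungated level for 55.1%, and the parts need not add up since share and level multiply. After thinning to 3000 UMIs, cells with a UMI in at least 5 members made up 1.82%, 0.84%, 6.28% and 3.09% of ungated cells. The number of such cells and the level per cell cannot be told apart in the ungated level.

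The level was then followed by the number of gate genes with a UMI in the cell. Cells with none of the 6, which were 86.9%, 87.5%, 70.7% and 77.6% of mesenchymal-like cells, held 398, 368, 637 and 493 CPM of the members. The mutant libraries were higher in this group, with means of 565 ± 102 (SD, n = 2) and 383 ± 21.2 (SD, n = 2). With 1 gate gene the level was 445, 495, 707 and 616 CPM, again without overlap. With 2 it was 1401, 1315, 1274 and 1291 CPM, with both wild type libraries a little above both mutant libraries. With 3 it was 2993, 5507, 2085 and 1642 CPM, in 15, 5, 41 and 31 cells, so both mutant libraries were lower at the edge of the gate. From 4 gate genes on the genotypes overlapped, with as few as 4 cells in a library. Cells with no gate gene held 253, 241, 289 and 267 CPM in the epithelial-like class and 479, 425, 639 and 481 CPM in the endothelial-like class, so both mutant libraries were higher there too, in the latter only just for Dnmt1 CKO replicate 2. In immune-like cells the level was 403, 432, 500 and 415 CPM, with overlap. Whether the classes differ in this was not tested. In each of these classes Dnmt1 CKO replicate 1 was the highest, as in mesenchymal-like cells.

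**Figure D4:**
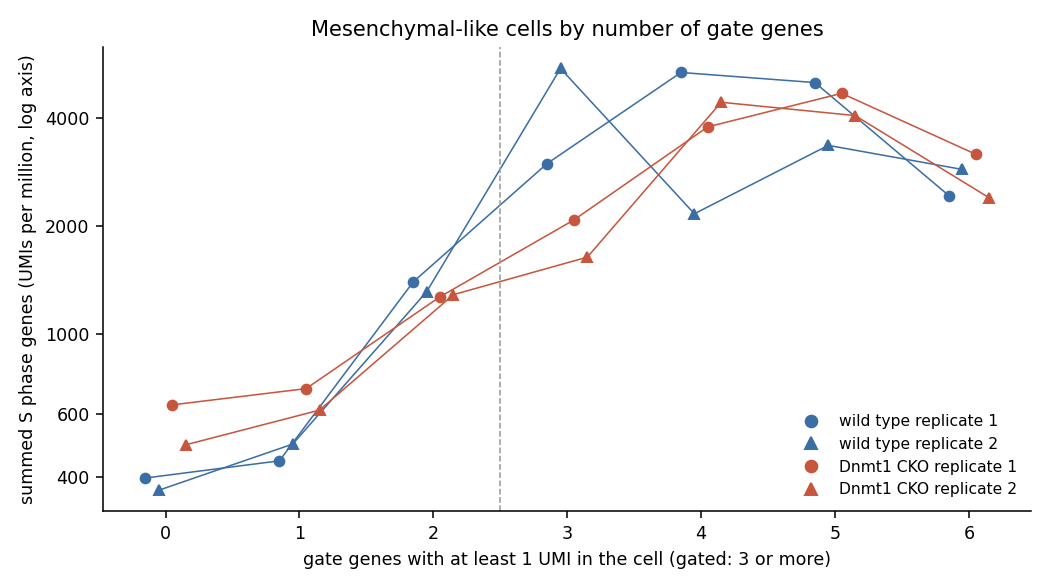
Summed level of the 34 members in mesenchymal-like cells, in CPM on a log axis, against the number of gate genes with a UMI in the cell, with a line for each library and a dashed line at the gate. At 0 gate genes the Dnmt1 CKO libraries stand at 637 and 493 against 398 and 368 in wild type, and at 2 gate genes all 4 libraries lie between 1274 and 1401.

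Single cells rich in S phase transcripts gave a further view that does not use the gate genes. After thinning to 3000 UMIs, cells with a UMI in at least 5 of the 34 members made up 3.14%, 1.79%, 9.39% and 5.47% of mesenchymal-like cells (means 2.47% ± 0.96 and 7.43% ± 2.77, SD, n = 2). In AT1-like cells such cells were 0.29%, 0%, 0.72% and 0.34%. Of the rich mesenchymal-like cells, which numbered 82, 43, 227 and 136, 56.1%, 46.5%, 62.6% and 53.7% lay outside the gate. Rich cells were therefore 1.82%, 0.84%, 6.28% and 3.09% of ungated cells, with both mutant libraries higher. The order was the same in ungated endothelial-like cells (9.05%, 3.41%, 21.1% and 9.42%), where wild type replicate 1 and Dnmt1 CKO replicate 2 lay close together, and in ungated epithelial-like cells (0.25%, 0%, 0.47% and 0.28%), where at most 3 cells a library were rich. The genotypes overlapped in ungated immune-like cells (8.31%, 8.80%, 10.96% and 4.66%) and in ungated mesothelial-like cells (6.67%, 11.5%, 5.26% and 13.7%). Inside the mesenchymal-like gate rich cells were 48.0%, 60.5%, 54.1% and 51.6%, with overlap. The limit of 5 cuts a continuous range, and 77, 56, 202 and 128 cells held 4 or 5 members. With a limit of at least 3 members the shares were 11.0%, 9.68%, 26.9% and 17.7%, and with at least 8 they were 1.57%, 0.87%, 4.47% and 2.58%.

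The mesenchymal-like clusters divided largely by genotype, which limits comparison within a subtype. In pericyte-like cells, the contractile cells around capillaries (224, 190, 41 and 103 cells), the members summed to 679, 727, 1250 and 934 CPM, with both mutant libraries higher. In matrix fibroblast-like cells (1570, 1337, 48 and 311 cells) they summed to 334, 293, 470 and 454 CPM, in the same order. Myofibroblast-like cells went the other way, at 525, 421, 394 and 296 CPM, with both mutant libraries lower. In adventitial fibroblast-like cells the groups overlapped (625, 365, 720 and 585 CPM). A cluster of cycling cells with no subtype name (37, 17, 117 and 60 cells) held 4195, 4313, 4479 and 4237 CPM, much the same in all 4 libraries. An unnamed cluster seen only in the mutant libraries (714 and 938 cells) held 622 and 566 CPM, and another that was nearly so (893 and 497 mutant cells) held 921 and 739 CPM.

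Mutant mesenchymal-like cells were also split by Dazl, a germ line gene that DNA methylation keeps silent in somatic cells. At 3000 UMIs, 6.21% and 4.06% of mutant cells with a Dazl UMI were gated in replicates 1 and 2, against 6.85% and 5.71% of those without. The members took 866 and 623 CPM of the thinned UMIs in cells with Dazl and 850 and 645 CPM in cells without. Cells with a UMI in at least 5 members were 8.61% and 5.14% of those with Dazl and 10.4% and 5.79% of those without. Both shares were thus lower with a Dazl UMI in both replicates, while the summed level was higher in replicate 1 and lower in replicate 2. The Wilson 95% intervals of the gated shares overlapped, at 5.04 to 7.64 against 5.49 to 8.51 in replicate 1. In replicate 2 they were 3.09 to 5.33 against 4.56 to 7.12. A cell with no Dazl UMI may still express the gene at this depth.

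The marker lists of the class itself and of other cell types were summed in the same mesenchymal-like cells. The 16 mesenchymal markers totalled 21742, 21446, 16198 and 18051 CPM, lower in both mutant libraries. Immune markers totalled 42.3, 50.3, 59.9 and 107 CPM and megakaryocyte markers 10.8, 11.5, 17.2 and 19.2 CPM, both higher in both mutant libraries. The other lists overlapped between genotypes. Erythroid markers totalled 3211, 1609, 5594 and 2654 CPM and were highest in Dnmt1 CKO replicate 1, the library with the highest members. Epithelial markers totalled 505, 501, 455 and 1281 CPM and were raised in Dnmt1 CKO replicate 2 only. Endothelial markers totalled 138, 136, 131 and 155 CPM. All markers of these lists were detected over all cells. Within gated mesenchymal-like cells, cardiomyocyte markers totalled 618, 26.9, 34.6 and 17.1 CPM and were high in wild type replicate 1 only. Erythroid markers there totalled 1849, 4116, 8325 and 2728 CPM, with overlap. Megakaryocyte markers (24.9, 23.8, 12.9 and 17.1 CPM) and mesothelial markers (133, 154, 125 and 132 CPM) were lower in both mutant libraries of gated cells. Their part in the result was not tested.

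In the other classes no member was called higher or lower, and few or none of all genes tested were called. In endothelial-like cells edgeR called 0 of 34, against 0.0157% of all genes tested, and DESeq2 called 0. The fold change was positive for all 34, with a median of 0.48 on the log2 scale, and 4 members had an unadjusted p under 0.05. Mcm3 had the smallest, at 50.5, 26.3, 88.3 and 58.1 CPM (log2 fold change 0.92, SE 0.33, edgeR adjusted p = 1.00). Chaf1a stood at 19.0, 10.4, 32.5 and 22.0 CPM and Mcm5 at 41.4, 19.8, 61.0 and 43.9 CPM, with log2 fold changes of 0.87 and 0.77. In each of the 3 genes wild type replicate 2 was the lowest library and Dnmt1 CKO replicate 1 the highest, and the other 2 libraries lay close together. Both mutant libraries were above both wild type libraries for 11 members, against 14.4% of all genes tested.

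Gated endothelial-like cells (136, 129, 73 and 100 cells) also gave 0 calls in edgeR, against 0% of all genes tested, and 0 in DESeq2. The median log2 fold change was 0.45, with 33 of 34 positive and 5 at an unadjusted p under 0.05. Mcm3 stood at 65.2, 39.7, 108 and 87.7 CPM (log2 fold change 0.89, SE 0.29, edgeR adjusted p = 0.857). Cdc6 stood at 6.74, 9.66, 18.2 and 13.4 CPM and Lig1 at 71.0, 50.5, 108 and 85.1 CPM, with log2 fold changes of 0.87 and 0.66. Both mutant libraries were above both wild type libraries for 19 members and below for none, against 13.7% of all genes tested that lay above. The members summed to 1755, 1318, 2219 and 1820 CPM in these cells. The same pair of libraries, wild type replicate 2 and Dnmt1 CKO replicate 1, stood at the ends.

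In epithelial-like cells edgeR called 0 of 34, with none at an unadjusted p under 0.05, against 0% of all genes tested, and DESeq2 called 0. The median log2 fold change was 0.12. Mcm6 had the smallest p at 4.05, 3.75, 12.0 and 4.01 CPM, where Dnmt1 CKO replicate 1 alone was high. The 26 members that passed the low-count filter in gated epithelial-like cells gave 0 calls in edgeR and in DESeq2, with none at an unadjusted p under 0.05, against 0% of genes tested. In immune-like cells edgeR and DESeq2 called 0 of 34, with none at an unadjusted p under 0.05, against 0.00816% of genes tested, and only 10 fold changes were positive (median −0.12). Prim1 was lowest in the mutant libraries there, at 13.9, 21.1, 13.6 and 10.0 CPM over all cells. In gated immune-like cells it stood at 48.2, 49.96, 30.5 and 18.9 CPM (log2 fold change −0.90, edgeR adjusted p = 1.00), the only one of 33 members tested with an unadjusted p under 0.05, and the count of calls was 0 in edgeR and DESeq2, against 0% of genes tested. There were 37, 30, 40 and 68 mesothelial-like cells, and Dnmt1 was lower in both mutant libraries of this class (52.2, 47.7, 9.50 and 17.9 plain CPM). That difference did not pass the test (log2 fold change −1.70, edgeR adjusted p = 0.0852). Of 28 members tested in this class 0 were called by edgeR or DESeq2, against 0.513% of genes tested. In edgeR 3 had an unadjusted p under 0.05. Rrm2 led, at 19.1, 25.2, 35.8 and 61.9 CPM (log2 fold change 1.06, edgeR adjusted p = 0.367).

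A call in mesenchymal-like cells and none elsewhere does not show a difference, so the differences between classes were tested. The change in mesenchymal-like cells exceeded that in epithelial-like cells for 3 of 34 members (edgeR), against 3.88% of genes called either way: Mcm3 by 1.05, Rfc3 by 0.97 and Tyms by 0.94 on the log2 scale. It exceeded that in endothelial-like cells for 4, against 4.69%: Pole by 1.32, Pclaf by 0.89, Rfc3 by 0.69 and Tyms by 0.67. It exceeded that in immune-like cells for 3, against 2.52%: Pole by 2.27, Mcm5 by 1.60 and Mcm6 by 1.16. No member was called lower in any of the 3 tests. Each of these counts was 0 without wild type replicate 2. With wild type replicate 1 left out they were 0, 1 and 7, and with Dnmt1 CKO replicate 1 left out 2, 4 and 13. With Dnmt1 CKO replicate 2 left out, 4, 3 and 9 members were called higher in these tests. Most members were therefore not shown to differ between classes.

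**Figure D5:**
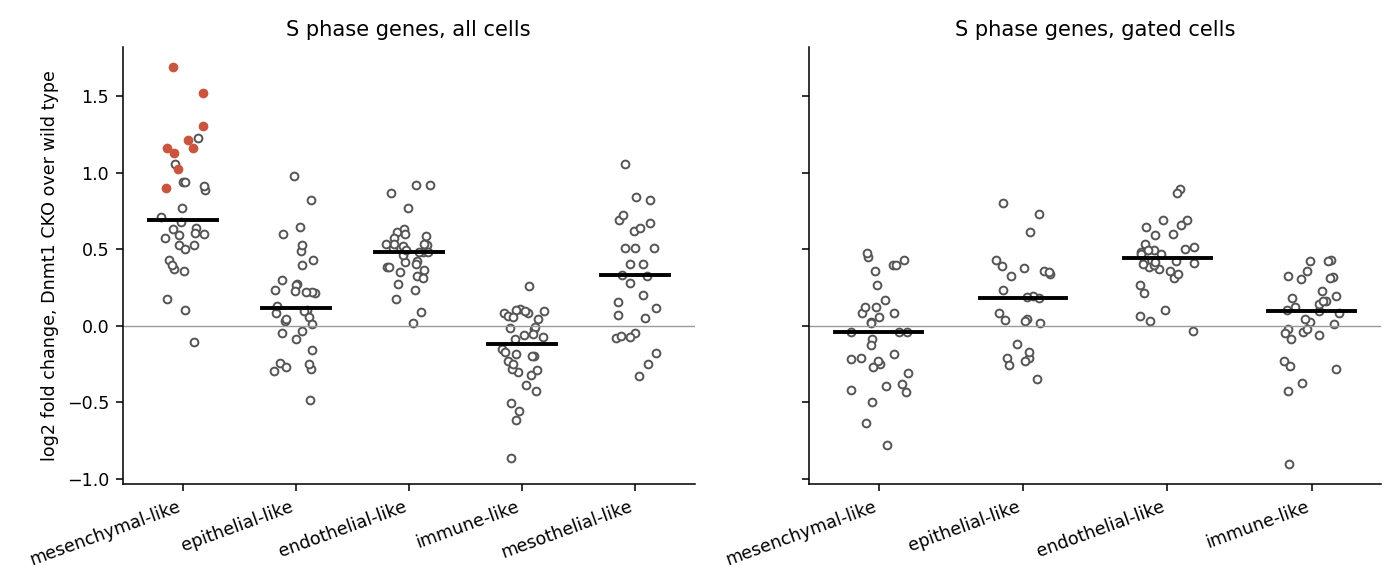
Log2 fold change of Dnmt1 CKO over wild type for the members in each class and in gated cells, with a point for each member, a bar at the median, and red filled points for an adjusted p under 0.05 in edgeR. The median lies at 0.69 in all mesenchymal-like cells, at −0.04 in gated ones, and at 0.48 and 0.45 in all and gated endothelial-like cells.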

How the data were processed

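Single-cell RNA was measured in 4 lung libraries, 2 a genotype. The authors deposited a UMI count for each gene in each barcode. The submitters' processing notes name bcl2fastq 2.20, Cell Ranger 3.1.0, Seurat and the build GRCm38.p6. Barcodes with under 500 genes or over 20% mitochondrial UMIs were left out, then doublets called by Scrublet (expected rate 6%; 228, 172, 78 and 82 cells). Cells were clustered in scanpy 1.11.5 and leidenalg 0.10.2 (2000 variable genes without 204 cell cycle genes, 30 components, 15 neighbours, resolution 1.0). Clusters were named from 29 marker lists, at least 3 markers each, with score limits that were chosen once the clusters had been looked at. Names end in "-like", as no annotation of the authors' was used.

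UMIs were summed per library and class, filtered with filterByExpr, scaled by TMM and compared with the quasi-likelihood test of edgeR 4.0.16 (R 4.3.3), prior count 2, Benjamini-Hochberg over all genes tested, called under 0.05. SEs were derived from the F statistic and the log2 fold change. Fits within gated cells needed 20 gated cells in every library, which mesothelial-like cells did not reach. Alternatives were RLE factors, no filter, DESeq2 1.42.0, each library left out, a replicate block, other cell filters, doublets kept, resolution 2.0, clustering with cell cycle genes and other gates. The fits were also run on counts simulated from means and dispersions fitted to these same sums, which cannot check whether that model holds. Intervals and limits for counts of 0 (3 counts) cover counting error only.

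The members and lists were chosen with earlier results of these data known. Each member called in any fit is given with its values, as are up to 4 others with the smallest p in other classes, and of the other replication genes the 6 with the smallest adjusted p.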

Additional observations from a re-analysis of the deposited data

Results flagged for a closer look

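The members listed here changed by different amounts in 2 sets of cells by a test of the difference itself (edgeR interaction of genotype and cell set, library as a block, 2 libraries against 2). Between gated and ungated mesenchymal-like cells the log2 change was lower in gated cells for Pclaf (−1.78), Mcm6 (−1.45), Rrm2 (−1.37), Mcm2 (−1.25), Chaf1a (−1.14), Prim1 (−1.06) and Tyms (−0.83). The log2 change in mesenchymal-like cells was higher than in epithelial-like cells for Mcm3 (1.05), Rfc3 (0.97) and Tyms (0.94). It was higher than in endothelial-like cells for Pole (1.32), Pclaf (0.89), Rfc3 (0.69) and Tyms (0.67). It was higher than in immune-like cells for Pole (2.27), Mcm5 (1.60) and Mcm6 (1.16). The comparisons between classes share the same mesenchymal-like sums, and none of these between-class calls remained without wild type replicate 2.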

How the results depend on the processing

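Of the settings tried on counts and shares, 219 stayed within the limits set for a like value and 41 did not. The count of members called in mesenchymal-like cells was 9 as reported, 20 without the low-count filter, 22 with the replicate block and 0 to 19 with a library left out. In ungated cells it was 9, with 1 to 11 when a library was left out and 12 with the replicate block. Leaving out a library gave 0 to 1 calls in epithelial-like, immune-like and mesothelial-like cells, and the replicate block gave 1 in endothelial-like cells (Mcm3). In gated cells of every class fitted, all settings gave 0. For the gated minus ungated difference 7 became 3 with DESeq2, 3 with a gate of at least 4 genes, 3 with a gate on thinned cells and 2 to 8 with a library left out.

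Against epithelial-like cells 3 became 7 without the filter, 1 with DESeq2, 1 when clustering used cell cycle genes and 0 to 4 with a library left out. Against endothelial-like cells 4 became 2 with RLE factors, 1 with DESeq2 and 0 to 4 with a library left out. Against immune-like cells 3 became 5 with RLE factors, 15 without the filter, 1 with DESeq2, 5 with cell cycle genes, 7 with stricter cell filters, 5 with doublets kept, 6 at resolution 2.0 and 0 to 13 with a library left out. The cause was not tested.

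The difference in gated share was 3.47 percentage points in mesenchymal-like cells, 5.17 with a gate of at least 2 genes, 4.59 without thinning and 2.68 to 4.27 with a library left out. In epithelial-like cells it was 0.27, 0.81 without thinning and −0.09 to 0.63 with a library left out. With a library left out it was 2.29 to 8.07 in endothelial-like, −2.97 to 3.98 in immune-like and −4.72 to 11.8 in mesothelial-like cells. The difference in cells with at least 5 members was 4.97 points, 11.9 with at least 3, 2.30 with at least 8 and 3.01 to 6.93 with a library left out. The log2 change left by the gated share alone was 0.44, and 0.33 to 0.55 with a library left out. Cdt1 in gated endothelial-like cells turned to −0.41 with the gate on thinned cells.

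Replicate numbers shared by the genotypes are not tied to a litter or day in the labels, and with 2 pairs the check cannot settle it: same-numbered libraries deviated together with r between 0.10 and 0.34 over classes, and between 0.11 and 0.42 without sex-linked genes. Fits in gated mesothelial-like cells, and in gated epithelial-like cells with the 2 stricter gates, were not run for lack of cells. Rare members such as Pole and Mcm10 rest on few UMIs.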
